A study of Mus musculus with 257 samples.

Results

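Normal mouse cerebellum was compared between postnatal days 5 and 13 (P5 and P13) in 10 of the 257 RNA sequencing libraries of the series, chosen by their genotype and age labels: 5 labelled WT at P5 and 5 labelled WT at P13. Each library was made from total RNA of a flash-frozen cerebellum. The labels give WT as the genotype and name no allele, treatment, sex, litter or pooling for these animals, and the series as a whole asked how the X-linked RNA helicase gene Ddx3x bears on medulloblastoma. Other libraries served only for contrast. They were WT cerebella of embryos (E16.5, 5 libraries) and of mice of day 30 or later (P30+, 5 libraries), BCP cerebella, which carry Blbp-Cre and the altered Ctnnb1 and Pik3ca of a Wnt medulloblastoma model (5 libraries per age), and BPtch cerebella, which carry Blbp-Cre and the Ptch1 allele of a Shh medulloblastoma model (5 per age). Blbp-Cre acts in hindbrain progenitors, so these alleles are not confined to the cerebellum, and neither genotype carries a Ddx3x deletion.

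The mouse cerebellum does most of its growing after birth. Granule cell progenitors divide in the external granule layer under Sonic hedgehog released by Purkinje cells, leave the cycle, extend parallel fibres, migrate inward past the Purkinje cells and settle in the internal granule layer, where they receive mossy fibre and Golgi cell synapses. Over the same period Purkinje cells grow their dendrites, inhibitory interneurons arrive from the white matter, oligodendrocyte precursors become myelinating cells and thyroid hormone paces much of this maturation.

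The 10 libraries held 17037742 to 25640752 counts, and mitochondrial genes took 0.543% to 2.60% of counts at P5 and 0.759% to 3.52% at P13. Levels below are CPM, counts per 1000000 counts of a library, listed in the order of replicates 1 to 5. A gene is said to be called when edgeR's quasi-likelihood test gave a Benjamini-Hochberg adjusted p under 0.05, and fold changes are log2 of P13 over P5 ± SE. The labels do not say that the libraries came from separate litters, so a p-value here reflects how far these libraries scatter, which may be technical in part. In whole tissue, fewer cells of a type and less RNA per cell cannot be told apart.

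One library went against its tissue label. In the library labelled WT P13 replicate 3, Gabra6, the granule neuron GABA-A receptor subunit, was at 3.94 CPM, against 302 to 551 CPM in the other P13 libraries. Zic1, a transcription factor of granule cells, was at 41.6 CPM against 1135 to 1555, and Pcp2, a Purkinje cell gene, at 3.39 CPM against 133 to 233. The transcription factor genes Pax7, Lhx9 and Shox2 of the midbrain were at 28.7, 145 and 87.2 CPM there, and at most 11.4, 62.8 and 36.3 CPM in the other P13 libraries. In all, 93 genes were at least 8-fold lower and 12 at least 8-fold higher in it than the mean of the other P13 libraries. The first principal component, with 47.4% of the variance, separated the ages, and the second, with 28.7%, set this library apart. Counts of all genes and of most lists are therefore given for all 10 libraries and for the 9 without it. Single genes are given both ways where the call or the size depends on it. Markers of neighbouring regions were also found in WT P5 replicate 5 (Pax7, 29.4 CPM) and WT P5 replicate 2 (the hindbrain gene Hoxb3, 31.3 CPM). Leaving out those 2 as well gave 6960 called genes of 18343. That count keeps WT P5 replicate 4, which had the highest summed midbrain and brainstem markers of the 10 libraries (217 CPM, with Th at 35.4 and Pax7 at 12.8 CPM), and WT P13 replicate 5, with Lhx9 at 62.8 and Shox2 at 36.3 CPM. Without WT P5 replicate 4 alone 5008 genes were called. By Xist and Ddx3y, 3 P5 libraries were female and 2 male, and 1 P13 library was female and 4 male. Sex thus went partly with age, and its part was not tested. None of the 5 tested sex-linked genes of the list was called. That cannot show whether sex mattered, since such genes differ widely within each age. Xist ran from 2.82 to 2380 CPM at P5 and from 2.46 to 2748 CPM at P13.

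**Figure D1:**
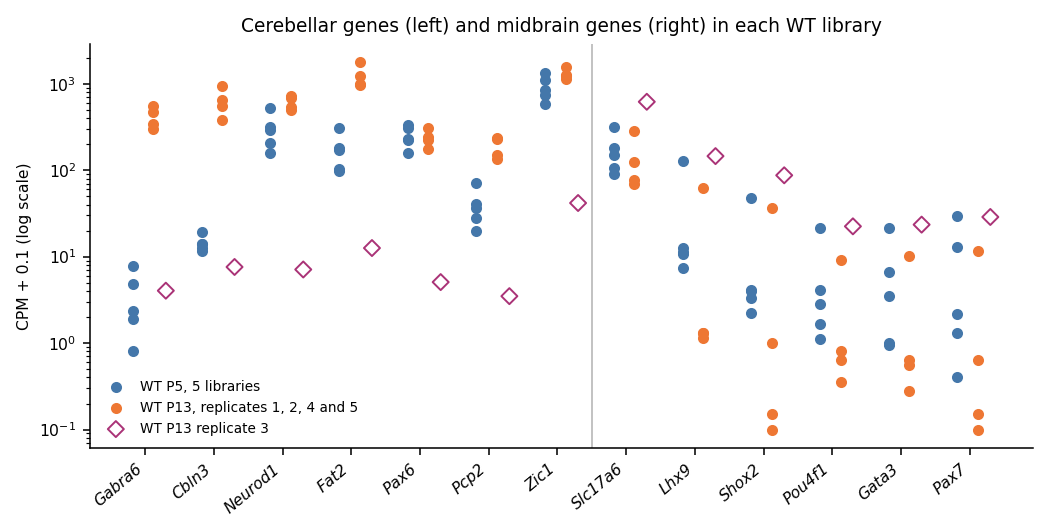
Levels (CPM + 0.1, log axis) of 7 cerebellar genes, left of the line, and 6 genes drawn as midbrain genes, right of it. Each point is a WT library. Slc17a6, on the right, does not mark the midbrain alone and was at 90.7 to 312.5 CPM in the P5 libraries. The diamond, the library labelled WT P13 replicate 3, lies at 3.94 CPM for Gabra6 where the other P13 libraries lie at 302 to 551. It is the highest P13 library for all 6 genes on the right.

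About 1 gene in 3 was called between the 2 ages. Of 17944 genes tested with 10 libraries, 6021 were called (33.6%), 3124 higher at P13 (17.4%) and 2897 lower (16.1%), and 2237 of the called genes differed at least 2-fold (12.5%), with 1115 higher (6.21%) and 1122 lower (6.25%). With 9 libraries 7249 of 18248 genes were called (39.7%), 3744 higher (20.5%) and 3505 lower (19.2%). The P5 and P13 levels did not overlap for 25.9% of genes with 10 libraries and 33.7% with 9. The split depends on the scaling. Under edgeR's TMM factors 51.9% of called genes were higher and the median gene changed by 0.03, whereas under library totals alone 26.7% were higher and the median gene was at -0.19.

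Genes of cell division fell together. All 19 tested genes of G2 and mitosis were called lower, with a median of -2.31, and 16 of 18 genes of DNA replication and the G1/S step were lower with none higher, with a median of -1.99, beside 0.03 for all genes. With 9 libraries the counts were 19 of 19 and 17 of 18. Mki67 (chromosome 7, 135689784 to 135716361, minus strand), the gene of the proliferation antigen Ki-67, was at 439, 229.9, 510.4, 324 and 276 CPM at P5 and at 50.6, 66.7, 11.4, 74.9 and 59.6 CPM at P13. The lowest P5 library was above the highest P13 library, and the fall was -2.55 ± 0.42 (adjusted p = 0.00111), or -2.30 ± 0.23 (adjusted p = 5.25e-05) with 9 libraries. Mcm6, a subunit of the replicative helicase, fell from 178, 91.7, 136, 125 and 107 CPM to 9.10, 20.6, 7.38, 17.8 and 15.1 CPM, a change of -2.99 ± 0.28 (adjusted p = 7.16e-05). Top2a, the topoisomerase that untangles replicated chromosomes, fell by 2.58 on the log2 scale and Cdk1, the mitotic kinase, by 2.54. The 2 replication genes not called with 10 libraries encode the G1/S cyclins Ccne1 (-0.32 ± 0.22, adjusted p = 0.294) and Ccne2 (-0.38 ± 0.27, adjusted p = 0.31). The summed level of the mitosis list ran from 1186 to 2380 CPM at P5 and from 81.5 to 389 CPM at P13, the library labelled replicate 3 being the lowest.

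Because the cell division genes moved as a block, the promoters of 4 of them are shown, 250 bases before the start to 50 after it, 5′ to 3′ on the gene's strand (RefSeq, GRCm38.p6). Capitals mark 3 motifs, each searched on both strands. The first is the CCAAT box. Next is the cell cycle homology region, or CHR, searched as TTTGAA and also as TTCGAA. Last is the E2F motif, searched as TTCGCGC and also as TTGGCGC. The windows are chr7:135716330-135716629 for Mki67, chr11:99024140-99024439 for Top2a, chr10:69352863-69353162 for Cdk1 and chr1:128359656-128359955 for Mcm6, all on the minus strand.
Mki67: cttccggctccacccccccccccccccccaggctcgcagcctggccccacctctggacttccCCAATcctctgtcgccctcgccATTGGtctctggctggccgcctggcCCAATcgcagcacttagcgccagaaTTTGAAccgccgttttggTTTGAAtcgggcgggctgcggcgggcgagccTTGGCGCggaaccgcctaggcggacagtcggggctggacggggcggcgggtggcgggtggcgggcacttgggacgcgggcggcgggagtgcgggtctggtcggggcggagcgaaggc
Top2a: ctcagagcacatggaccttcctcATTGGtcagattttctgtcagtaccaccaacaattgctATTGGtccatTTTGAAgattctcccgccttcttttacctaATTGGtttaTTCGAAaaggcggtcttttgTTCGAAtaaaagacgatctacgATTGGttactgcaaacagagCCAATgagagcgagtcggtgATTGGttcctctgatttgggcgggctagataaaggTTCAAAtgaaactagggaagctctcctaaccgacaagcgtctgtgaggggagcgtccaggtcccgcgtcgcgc
Cdk1: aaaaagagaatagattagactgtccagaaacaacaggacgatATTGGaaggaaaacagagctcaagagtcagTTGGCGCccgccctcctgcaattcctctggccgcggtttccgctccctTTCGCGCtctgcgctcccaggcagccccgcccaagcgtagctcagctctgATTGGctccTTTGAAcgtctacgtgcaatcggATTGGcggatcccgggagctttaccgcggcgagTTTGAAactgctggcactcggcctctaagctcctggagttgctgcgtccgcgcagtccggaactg
Mcm6: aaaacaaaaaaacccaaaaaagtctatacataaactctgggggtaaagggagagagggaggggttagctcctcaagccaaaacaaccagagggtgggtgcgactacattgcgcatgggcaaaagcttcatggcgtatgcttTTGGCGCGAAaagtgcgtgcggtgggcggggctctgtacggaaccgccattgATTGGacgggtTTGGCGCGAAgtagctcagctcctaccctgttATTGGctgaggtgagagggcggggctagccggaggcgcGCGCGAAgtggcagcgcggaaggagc
The promoter table held 15 of the 19 mitosis genes, and 12 of these (80%) had a CHR match and 14 (93.3%) a CCAAT match, against 13.5% and 38.3% of the 11936 promoters of tested genes and 19.4% and 37.9% of all 27025. Of 15 replication genes, 5 (33.3%) had an E2F match, against 6.92% of the promoters of tested genes and 3.98% of all. In Mki67 the CHR matches began 116 and 98 bases before the start, in Top2a 179, 140, 120 and 23 bases before and in Cdk1 71 and 15 bases before. Mcm6 had no CHR match in this window and E2F matches beginning 109, 106, 46 and 43 bases before the start and 25 bases after it, of which the first and the second pair overlapped each other. No match overlapped one of another motif. A match is a description of the letters, not a site of binding.

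**Figure D2:**
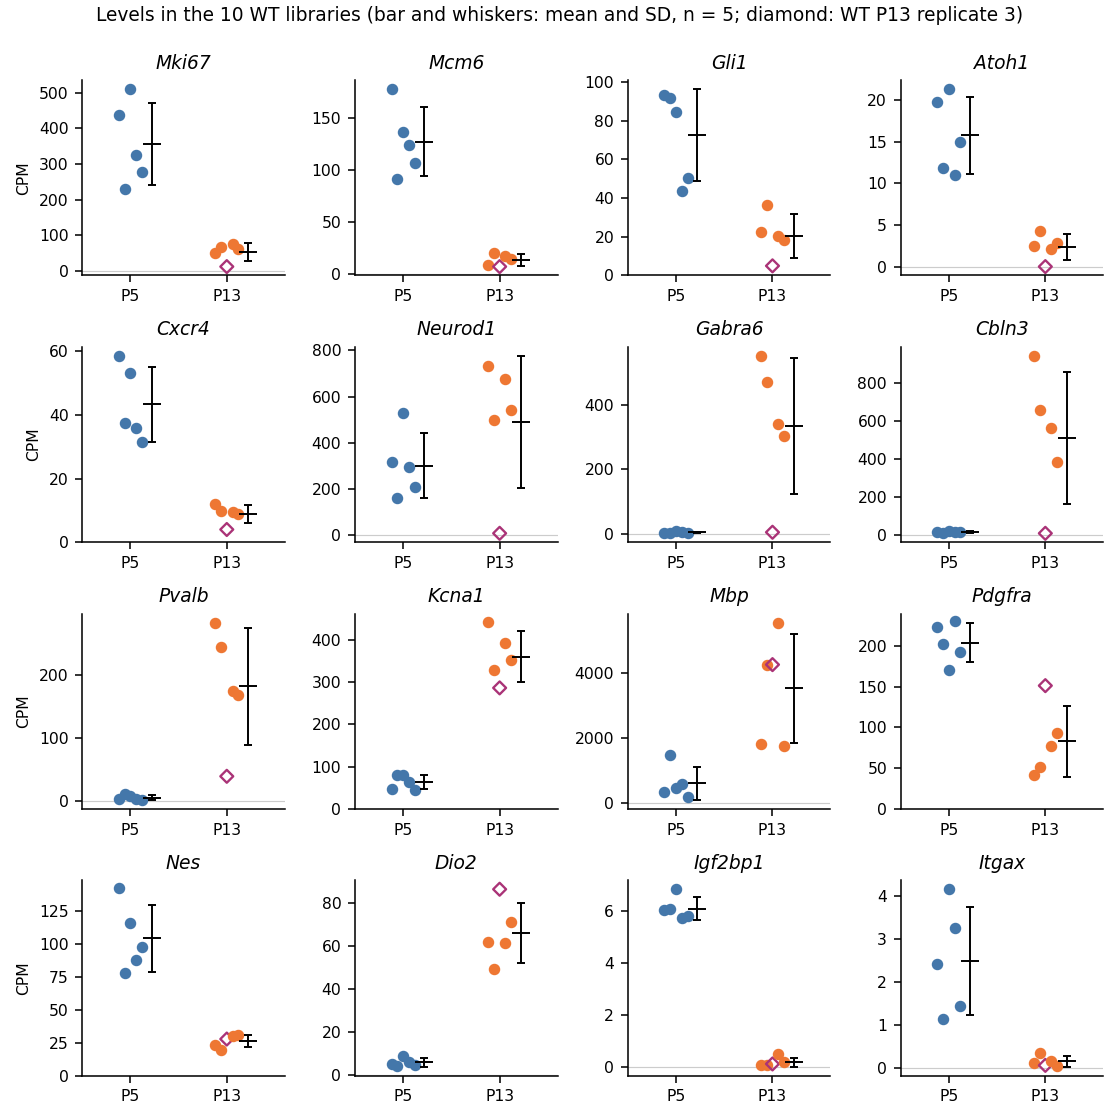
Levels (CPM, linear axes) of 16 genes in the 5 WT P5 and 5 WT P13 libraries, with the mean and SD of each group and the library labelled WT P13 replicate 3 as a diamond. Mki67, Mcm6, Cxcr4, Nes, Igf2bp1 and Itgax are lower in all 5 P13 libraries than in any P5 library, and Kcna1, Pvalb, Mbp and Dio2 are higher, while the diamond lies within the P5 range for Gabra6 and below it for Cbln3.

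Genes that take cells out of the cycle did not move as one. Of 10 tested, 3 were called lower and none higher with 10 libraries, beside 16.1% and 17.4% of all genes. With 9 libraries 3 were lower and 3 higher, beside 19.2% and 20.5% of all genes. Cdkn1c, the cyclin-dependent kinase inhibitor p57, fell from 69.9, 32.5, 60.4, 42.7 and 47.1 CPM to 6.57, 5.59, 9.62, 13.9 and 11.1 CPM, -2.21 ± 0.28 (adjusted p = 0.000317). Cdkn2c, the inhibitor p18, fell by 1.44 (adjusted p = 0.00509). Cdkn1b, the inhibitor p27 that accumulates in granule cells leaving the cycle, was not called with 10 libraries (0.47 ± 0.34, adjusted p = 0.309) and was higher with 9 (0.71 ± 0.18, adjusted p = 0.0116). The antiproliferative gene Btg1 likewise was at 0.97 ± 0.37 (adjusted p = 0.0653) with 10 and 1.21 ± 0.20 (adjusted p = 0.00094) with 9.

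Much of the Sonic hedgehog pathway was lower at P13. Of 17 tested genes 11 were called lower and none higher, with a median of -1.23, and with 9 libraries 11 were lower and 1 higher. Among the targets, Gli1, the transcription factor whose level reads out the pathway, fell from 93.0, 91.4, 84.5, 43.8 and 50.4 CPM to 22.3, 36.4, 4.98, 20.4 and 18.2 CPM, -1.62 ± 0.40 (adjusted p = 0.00995). Mycn, which drives granule progenitor division, fell from 76.8 to 135 CPM at P5 to 8.201 to 29.35 CPM at P13 (-1.97 ± 0.30, adjusted p = 0.000805), and the cyclin genes Ccnd1 and Ccnd2 fell by 1.34 and 2.07. Of the transducers, Smo fell by 1.23 (adjusted p = 0.000261) and Gli2 by 1.82 (adjusted p = 0.000231). The receptor Ptch1, itself a target, was not called: it was at 228, 195, 250.3, 194 and 192 CPM at P5 and 257, 216, 144, 223 and 187 CPM at P13, with overlapping groups and a change of 0.17 ± 0.15 (adjusted p = 0.398) that became -0.04 under library totals. The ligand Shh (-0.13 ± 0.26, adjusted p = 0.74) and the co-receptor Boc (0.13 ± 0.41, adjusted p = 0.836) were not called either. Another co-receptor, Cdon, was called higher only without replicate 3 (1.21 ± 0.28, adjusted p = 0.00584, against 0.0512 with 10 libraries).

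The granule lineage passed from its early to its late genes, and here the library labelled replicate 3 matters most. Atoh1, the transcription factor that defines granule progenitors, fell from 19.8, 11.9, 21.3, 10.98 and 14.9 CPM to 2.46, 4.28, 0, 2.07 and 2.81 CPM (-2.56 ± 0.63, adjusted p = 0.0104), or by 2.24 with 9 libraries. Of 14 progenitor and early factors 6 were called lower and none higher, with a median of -0.74, and with 9 libraries 8 were lower and 2 higher. The 2 higher ones were Zic1 (0.71 ± 0.22, adjusted p = 0.0276) and Zic2 (0.66 ± 0.20, adjusted p = 0.0215), which granule cells keep after they leave the cycle. Pax6 gave -0.18 ± 0.66 with 10 libraries and 0.14 ± 0.20 with 9, called in neither.

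Genes of differentiation and migration did not move as one. Of 21 tested, 4 were lower (beside 16.1% of all genes) and none higher with 10 libraries (median -0.22). With 9 libraries 6 were lower and 4 higher (median 0.01), near the 19.2% and 20.5% of all genes, and 7 were lower under library totals. Cxcr4, the chemokine receptor that holds progenitors under the pia, fell from 58.7, 37.4, 53.1, 35.8 and 31.6 CPM to 11.9, 9.91, 3.99, 9.54 and 8.89 CPM (-2.07 ± 0.27, adjusted p = 0.000316), and the netrin receptor gene Dcc fell by 2.21 (adjusted p = 7.2e-05). Cntn2, the adhesion molecule TAG-1 of granule cells that have just left the cycle, was at 324 to 669 CPM at P5 and at 1005, 1060.0, 172, 1010.0 and 778 CPM at P13. It lay above every P5 library in the 4 P13 libraries other than replicate 3, and was called with 9 libraries (1.32 ± 0.21, adjusted p = 0.000799) and not with 10 (1.07 ± 0.40, adjusted p = 0.0619). Astn2 (0.93 ± 0.19, adjusted p = 0.00336) of glia-guided migration, Plxna2 (0.74 ± 0.12, adjusted p = 0.000873) and Neurod1 (1.23 ± 0.30, adjusted p = 0.00873), the differentiation factor, rose with 9 libraries and were not called with 10. Dcx, the microtubule protein of migrating neurons, was at -0.96 ± 0.45 (adjusted p = 0.123) with 10 libraries and fell by 0.69 (adjusted p = 0.0341) with 9.

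Mature granule neuron genes rose: 16 of 18 were called higher and none lower, with a median of 2.16, and 18 of 18 with 9 libraries. Gabra6 (chromosome 11, 42306437 to 42321072, minus strand) was at 1.79, 0.718, 7.62, 4.78 and 2.23 CPM at P5 and at 551, 471, 3.94, 339 and 302 CPM at P13. Its rise was 6.80 ± 1.11 (adjusted p = 0.0011) with 10 libraries and 7.12 ± 0.57 (adjusted p = 1.92e-05) with 9, larger than that of any other called gene above the level floor given with the largest changes. Cbln3, a synapse organiser of granule neurons, rose from 11.5 to 19.1 CPM to 384 to 941 CPM in those 4 libraries and stood at 7.49 CPM in replicate 3 (5.69 ± 0.28, adjusted p = 2.55e-06, with 9). The extrasynaptic GABA-A subunit Gabrd rose by 5.49 ± 0.39 (adjusted p = 1.34e-05), the NMDA receptor subunit Grin2c by 4.82 ± 0.40 (adjusted p = 2.14e-05) and the transcription factor Etv1 by 3.38 ± 0.23 (adjusted p = 1.12e-05), all with 9 libraries. With 10 libraries these 3 rose by 5.19, 4.54 and 3.09. Slc17a7, the vesicular glutamate transporter of parallel fibres, rose by 3.73 ± 0.32 (adjusted p = 2.42e-05) with 9 libraries and by 3.41 (adjusted p = 0.0073) with 10.

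Purkinje cell genes were mostly higher. Of 18 tested 11 were called higher and none lower, with a median of 1.54, and with 9 libraries 14 were higher and 1 lower. Pvalb, the calcium buffer parvalbumin that molecular layer interneurons also express, rose from 3.94, 11.6, 8.58, 3.98 and 2.51 CPM to 283, 244, 39.9, 175 and 169 CPM (5.13 ± 0.58, adjusted p = 0.000167). Gng13, a G protein subunit, rose from at most 1.74 CPM to 88.5, 103, 6.67, 52.0 and 36.9 CPM (5.50 ± 0.64, adjusted p = 0.000205), and Ppp1r17 rose by 5.00 (adjusted p = 0.00122). Rora, the nuclear receptor that Purkinje cells need for their dendrites, rose by 1.54 ± 0.29 (adjusted p = 0.00224), and Aldoc, the enzyme of the zebrin bands that astrocytes also make, by 2.20 ± 0.26 (adjusted p = 0.000204). Some Purkinje cell genes were called with 9 libraries only. With 9, Calb1, calbindin, was at 1.41 ± 0.29 (adjusted p = 0.00361 with 9 and 0.159 with 10) and Car8 at 1.36 ± 0.37 (adjusted p = 0.013 and 0.223). Itpr1, the calcium release channel, was at 1.74 ± 0.25 (adjusted p = 0.000409 and 0.0556). The 1 lower gene, Skor2, a repressor of young Purkinje cells, was at -0.70 ± 0.20 (adjusted p = 0.0179) with 9 libraries.

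Genes of the inhibitory lineage went both ways. Of 15 tested, 5 were higher and 2 lower with 10 libraries, beside 17.4% and 16.1% of all genes, and 3 were higher and 4 lower with 9 libraries or under library totals. The 5 higher with 10 libraries are a larger share than that of all genes, but with 9 libraries the 3 higher stood beside 20.5% of all genes. Ptf1a, the factor that sets the GABAergic fate in the ventricular zone, fell from 4.88, 3.59, 4.55, 2.82 and 3.69 CPM to 0.117, 0.654, 0, 0 and 0.352 CPM (-3.85 ± 0.66, adjusted p = 0.00148). Pax2, the marker of newborn interneurons, was lower in every P13 library than in any P5 library, with values of 56.5, 66.9, 52.9, 37.9 and 28.0 CPM against 17.9, 21.8, 0.711, 23.3 and 11.1 CPM, and was called with 9 libraries (-1.18 ± 0.25, adjusted p = 0.00426) and not with 10 (adjusted p = 0.0738). Gad1, which makes GABA, rose by 0.84 ± 0.15 (adjusted p = 0.00193).

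Neurotransmitter receptor genes were higher in part. Of 14 GABA and glycine receptor genes 5 were higher and none lower, with a median of 0.41. Of 12 glutamate receptor genes 6 were higher and 1 lower, with a median of 0.50. Of all genes 17.4% were higher and 16.1% lower. With 9 libraries these were 5 higher and 1 lower (median 0.10), and 7 higher and 1 lower (median 0.59). The summed GABA and glycine receptor level was 2130 CPM in replicate 3, against 1131 to 1641 CPM in the other P13 libraries. Gabrb2, a beta subunit of GABA-A receptors, rose by 1.80 (adjusted p = 0.00169), while Gabra3, an alpha subunit of immature neurons, was at -0.32 ± 0.55 (adjusted p = 0.693) with 10 libraries and -1.09 ± 0.38 (adjusted p = 0.0438) with 9. Among NMDA receptor genes, Grin2a, the subunit of mature synapses, rose from 12.99, 21.8, 15.1, 23.5 and 24.3 CPM to 85.6, 58.3, 93.0, 61.5 and 79.5 CPM (2.17 ± 0.24, adjusted p = 0.000139). Grin2b, the subunit it replaces, was not called (-0.07 ± 0.22, adjusted p = 0.841) and its groups overlapped. The obligate subunit Grin1 rose by 1.41 (adjusted p = 0.000448) and the AMPA receptor subunit Gria4 by 1.22 (adjusted p = 0.00109).

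Both chloride transporter genes rose. Slc12a5, the exporter KCC2 that makes GABA inhibitory, was at 195, 527, 196, 357 and 493 CPM at P5 and 592, 606, 975, 561 and 682 CPM at P13 (1.17 ± 0.32, adjusted p = 0.0164), and Slc12a2, the importer NKCC1, at 87.3 to 138 CPM and 121 to 204 CPM (0.75 ± 0.16, adjusted p = 0.00435). Ion channels of fast firing were higher: 11 of 13 tested rose and none fell, with a median of 1.42, and with 9 libraries 12 rose and 1 fell. Kcna1, a potassium channel of axons, rose from 47.7, 79.4, 80.3, 62.5 and 44.5 CPM to 442, 329, 286, 392 and 352 CPM (2.75 ± 0.20, adjusted p = 3.91e-05), with all P13 libraries above all P5 libraries. The inward rectifier Kcnj9 rose by 2.42 and the P/Q calcium channel Cacna1a by 1.88. Of the sodium channels Scn1a, Scn2a and Scn8a rose by 1.39, 1.05 and 0.82, and the early form Scn3a was at -0.88 ± 0.51 (adjusted p = 0.211) with 10 libraries and -1.39 ± 0.44 (adjusted p = 0.029) with 9. Among 18 synapse genes 11 rose and none fell, with a median of 0.93. With 9 libraries 10 rose and none fell, with a median of 0.88. Their summed level was 9414 CPM in replicate 3, against 5441 to 7941 CPM in the other P13 libraries. Those that rose with 10 libraries included the calcium sensor Syt2 (2.44 ± 0.26, adjusted p = 0.000139) and complexin Cplx1 (1.45 ± 0.21, adjusted p = 0.000588).

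Myelin genes rose without exception in the 10-library comparison: 19 of 19, with a median of 2.76, and 18 of 19 with 9 libraries, where Gal3st1 was not called (0.97 ± 0.38, adjusted p = 0.0643). Its call also ended without any of 5 other single libraries (P13 replicate 4 and P5 replicates 1, 3, 4 and 5), with adjusted p of up to 0.0888. Mbp, myelin basic protein, was at 322, 1480.0, 446, 572 and 172 CPM at P5 and 1808, 4245, 4254, 5550.0 and 1742 CPM at P13 (2.79 ± 0.56, adjusted p = 0.00344). The groups did not overlap, but both were wide: P5 replicate 2 lay near the lowest P13 libraries. Mog, a late myelin protein, rose by 4.74 ± 0.67 (adjusted p = 0.000543). Opalin, a marker of myelinating cells, rose from 0.0390, 0.205, 0.192, 0.201 and 0 CPM to 4.40, 11.4, 11.2, 13.1 and 5.68 CPM (6.33 ± 0.55, adjusted p = 6.26e-05). Replicate 3 lay inside the range of the other P13 libraries for both Mbp and Opalin.

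Precursor genes of the same lineage did not follow. Of 12 oligodendrocyte precursor genes 1 was called lower and none higher (median 0.07, and -0.16 under library totals). With 9 libraries 2 were lower (median -0.16). Pdgfra, the growth factor receptor of precursors, was at 223, 203, 170.2, 230.0 and 192 CPM at P5 and 41.4, 51.8, 151, 77.2 and 93.4 CPM at P13 (-1.06 ± 0.31, adjusted p = 0.0235). Its call ended without P13 replicate 4 (adjusted p = 0.0536), P5 replicate 1 (0.052) or P5 replicate 4 (0.052), and the fall was larger with 9 libraries (-1.43 ± 0.22, adjusted p = 0.000667). The summed precursor list stood at 1855 CPM in replicate 3, against at most 1033 CPM in any other library of either age. Cholesterol synthesis genes, which supply myelin, changed little: 1 of 15 was higher (Sc5d, 0.70 ± 0.11, adjusted p = 0.000867) and 1 lower (Fdft1, -0.41 ± 0.09, adjusted p = 0.00536), with a median of 0.09, which became -0.12 under library totals, where 5 were lower.

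Astroglial genes were higher in part and radial glial genes lower. Of 15 astroglial genes 8 rose and 2 fell, with a median of 0.70, and 9 rose and 2 fell with 9 libraries. S100b, a calcium-binding protein of astrocytes and Bergmann glia, rose from 33.8, 57.2, 32.9, 39.6 and 16.54 CPM to 130.5, 150.2, 107, 156 and 96.4 CPM (2.06 ± 0.26, adjusted p = 0.000301). The glutamate transporter Slc1a2 rose by 1.72 (adjusted p = 0.00309) and the potassium channel Kcnj10 by 1.74 (adjusted p = 0.00256). Both were highest in replicate 3, at 2345 and 600.3 CPM, and without it rose by 1.34 (adjusted p = 0.00121) and 1.36 (adjusted p = 0.000837). Aldh1l1, often used to mark astrocytes, fell by 1.06 (adjusted p = 0.00121), and Gfap was not called (0.17 ± 0.21, adjusted p = 0.572).

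Of 11 radial glial genes 7 fell and 1 rose, with a median of -1.02, and the same numbers held with 9 libraries. Nes, the intermediate filament of neural progenitors, fell from 142, 77.8, 116, 87.8 and 97.9 CPM to 23.3, 19.3, 27.8, 29.8 and 30.8 CPM (-1.77 ± 0.19, adjusted p = 0.000142). Vim fell by 1.74, the Notch target Hes5 by 1.89 and Fabp7, the gene of Blbp, by 1.36 (adjusted p = 0.00121). The matrix protein Tnc fell by 1.76 with 10 libraries, with 27.0 CPM in replicate 3 against 147 to 179 CPM in the other P13 libraries. Prom1 was the 1 radial glial gene that rose (1.04 ± 0.26, adjusted p = 0.0102).

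Thyroid hormone genes included some of the steepest changes. Of 8 tested 5 rose and 2 fell, with a median of 0.86, and 5 rose and 1 fell with 9 libraries. Dio2 (chromosome 12, 90724552 to 90738438, minus strand), the glial deiodinase that makes active hormone from its precursor, rose from 5.07, 4.05, 9.06, 6.14 and 4.805 CPM to 61.5, 49.2, 86.2, 61.2 and 71.1 CPM (3.72 ± 0.26, adjusted p = 3.74e-05). Hr (chromosome 14, 70552212 to 70573548, plus strand), the corepressor Hairless and a direct target of the receptor, rose from 6.20, 9.43, 10.7, 9.92 and 9.55 CPM to 168, 164, 73.9, 141 and 91.7 CPM (4.01 ± 0.26, adjusted p = 3.3e-05). Neither gene had overlapping groups. Klf9, another target, rose by 2.65 ± 0.24 (adjusted p = 6.62e-05). Of the receptors, Thrb rose by 1.17 ± 0.18 (adjusted p = 0.00091) and Thra was not called (-0.03 ± 0.14, adjusted p = 0.886). Crym, a protein that binds the hormone in the cytosol, fell by 2.27 ± 0.42 (adjusted p = 0.00225).

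**Figure D3:**
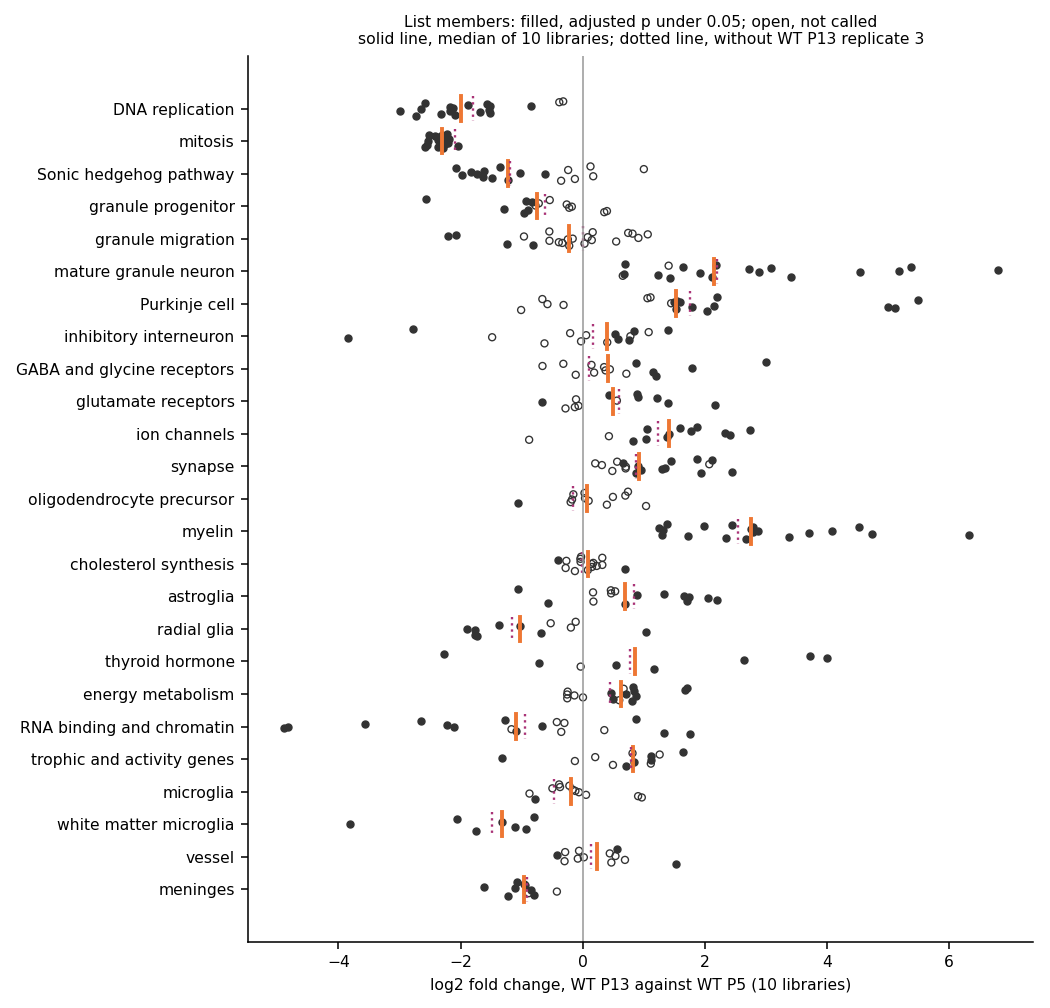
Log2 fold change of each member of 25 gene lists, WT P13 against WT P5, filled where called and open where not, with the list median of 10 libraries (solid line) and of 9 libraries (dotted line). Mitosis and DNA replication genes lie to the left, at medians of -2.31 and -1.99, and myelin and mature granule neuron genes to the right, at 2.76 and 2.16.

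Energy genes moved less. Of 16, 9 rose and none fell, with a median of 0.64 (0.45 with 9 libraries). Ckmt1, the mitochondrial creatine kinase, rose by 1.72 (adjusted p = 0.000732) and the lactate dehydrogenase subunit Ldhb by 0.88 (adjusted p = 0.00108). Its counterpart Ldha was at -0.13 ± 0.10 (adjusted p = 0.337), and the growth-associated hexokinase Hk2 at -0.25 ± 0.39 (adjusted p = 0.655). RNA-binding and chromatin genes fell in part. Of 17 in that list 9 fell and 3 rose, with a median of -1.09, and 11 fell and 3 rose with 9 libraries. Their summed level hardly differed, at 2066 to 2234 CPM at P5 and 2061 to 2146 CPM at P13 outside replicate 3. Igf2bp1, an mRNA-binding protein of embryonic tissue, fell from 6.04, 6.10, 6.85, 5.74 and 5.81 CPM to 0.0587, 0.0503, 0.109, 0.477 and 0.201 CPM (-4.82 ± 0.44, adjusted p = 6.62e-05). Its relative Igf2bp3 fell by 4.89 ± 0.43 (adjusted p = 6.26e-05), the architectural protein Hmga2 by 3.56 ± 0.28 (adjusted p = 4.55e-05) and the imprinted RNA H19 by 2.64 ± 0.35 (adjusted p = 0.000405). Ezh2, a histone methyltransferase, fell by 1.27 (adjusted p = 0.0107). Rbfox3, the neuronal splicing factor NeuN, rose by 1.76 ± 0.31 (adjusted p = 0.00156), with replicate 3 at 153 CPM beside 429 to 645 CPM in the other P13 libraries. Among trophic and activity genes, 5 of 12 rose and 1 fell, but under library totals 1 was called higher. The calls of the activity genes Arc and Fos ended without any of 8 and of 5 of the 10 single libraries (adjusted p of up to 0.0951 and 0.0635). The 1 that fell was Igf1 (-1.32 ± 0.26, adjusted p = 0.00322), which is also in the white matter microglia list.

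Microglia of the early postnatal white matter form a transient state around birth. All 7 tested genes of that state fell, with a median of -1.32 (-1.49 with 9 libraries), beside 16.1% of all genes. The calls of Spp1 and Lpl ended without any of 5 and of 6 of the 10 single libraries (adjusted p of up to 0.0665 and 0.0613). Itgax, the integrin CD11c that marks these cells, was at 2.42, 1.13, 4.17, 3.27 and 1.45 CPM at P5 and 0.117, 0.352, 0.0547, 0.159 and 0.0503 CPM at P13 (-3.82 ± 0.54, adjusted p = 0.000516), with no overlap. Gpnmb, a lysosomal glycoprotein, fell by 2.06 ± 0.45 (adjusted p = 0.00514). Of 12 general microglia genes 1 was lower with 10 libraries and 5 with 9, none higher. The 1 was Trem2 (-0.78 ± 0.20, adjusted p = 0.0117), a lipid receptor, while P2ry12, of resting microglia, was at 0.91 ± 0.37 (adjusted p = 0.0809) and Cx3cr1 at -0.06 ± 0.34 (adjusted p = 0.914). The summed general list ran from 201.5 to 257.5 CPM at P5. At P13 it was 325.4 CPM in replicate 3 and 116.6 to 187.1 CPM in the other libraries, below every P5 library.

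Markers of tissue around the cerebellum varied too. Of 10 meningeal genes 8 fell and none rose, though only 2 were called lower when the 4 WT ages shared 1 fit (medians of -0.95 and -0.96), with summed levels of 661 to 739.7 CPM at P5 and 189.7 to 382.9 CPM at P13. Col3a1, a fibrillar collagen, fell by 1.62 ± 0.22 (adjusted p = 0.000402). None of 8 choroid plexus genes was called by edgeR with either set of libraries, and their levels followed single libraries: Ttr was at 12.8, 3184, 6.33, 2518 and 25.6 CPM at P5 and 3.64, 1722, 1.31, 2215 and 5.28 CPM at P13. Of 12 vascular genes 2 rose and 1 fell, no larger a share than the 17.4% and 16.1% of all genes, among them the transporter of the blood-brain barrier Slco1a4 (1.53 ± 0.36, adjusted p = 0.00814). None of 6 blood genes was called with 10 libraries and 1 was higher with 9. The part of meninges, choroid plexus or neighbouring brain in the other results was not tested beyond the counts without single libraries.

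The largest fold changes were read from the called genes whose log2 CPM averaged 1 or more, predicted genes aside. After Gabra6 and Opalin, the largest rises with 10 libraries were those of Fam107a (5.71 ± 0.72), Gng13, Kcng4 (5.49 ± 0.54), Cbln3, Gabrd, Hes3 (5.15 ± 0.88), Pvalb and Ppp1r17. Fam107a, an actin regulator, rose from 2.61, 4.67, 6.42, 5.69 and 4.86 CPM to 439.6, 260.1, 17.4, 234 and 141 CPM (adjusted p = 0.000297). The falls were led by Fgf15 (-5.86 ± 0.54), which stood at 4.36 to 7.57 CPM at P5 and at 0, 0, 0.219, 0.0530 and 0.101 CPM at P13, where so few counts leave the fold loosely set. Ptf1a, described above with the inhibitory lineage, was not the only progenitor gene to fall steeply. Nphs1 fell from 41.3, 37.0, 35.4, 23.7 and 28.4 CPM to 1.06, 1.36, 0.109, 0.742 and 0.402 CPM (-5.27 ± 0.42, adjusted p = 4.55e-05), and Kirrel2 from 37.1 to 75.5 CPM to 0.765 to 2.81 CPM (-4.47 ± 0.35, adjusted p = 4.23e-05). These cell adhesion genes, known from the kidney filter as nephrin and Neph3, are neighbours on chromosome 7 with 624 bases between them (Kirrel2 at 30447534 to 30457690, minus strand, and Nphs1 at 30458315 to 30487223, plus strand). Prdm13, a regulator that acts with Ptf1a, fell by 4.33 ± 0.57 (adjusted p = 0.00038). Fgf3 fell by 3.94 and Insm2 by 4.12. Slc6a3, the dopamine transporter, was also among them, but its P5 level came from replicate 4 (67.8 CPM, with at most 1.23 CPM in the others), and without that library the change was -0.69 (adjusted p = 0.443). Its call also ended without P13 replicate 1, 2, 4 or 5 (adjusted p of 0.0649 to 0.0824).

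The interval was set against the ones before and after it in a fit of 20 WT libraries. The contrast with E16.5 to P5 called 3644 of 18988 genes (19.2%), 1642 higher (8.65%) and 2002 lower (10.5%), and the contrast with P13 to P30+ called 2168 (11.4%), 1582 higher (8.33%) and 586 lower (3.09%). Without replicate 3 the counts were 4403 of 19252 (22.9%) and 2302 (12%), and they dropped to 2173 and 2430 (the former contrast) without WT P5 replicate 1 or 3 and to 1419 (the latter) without WT P13 replicate 5. A contrast above 0 means that the log2 change from P5 to P13 was the higher of the pair. Adjacent intervals share the P5 or P13 libraries, so only the contrast itself is tested.

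Division turned at P5. Mki67 averaged 80.8 ± 12.97 CPM (SD, n = 5) in E16.5 cerebellum and 356 ± 116 CPM at P5. It was down to 52.6 ± 24.7 CPM by P13 and to 1.25 ± 0.419 CPM in P30+ cerebellum. Its contrast with the earlier interval was -4.69 (adjusted p = 8.18e-06) and with the later one 2.77 (adjusted p = 0.00435), since it fell by 5.35 from P13 to P30+ (adjusted p = 2.22e-08). All 19 mitosis genes were called lower against the earlier interval and 8 of 19 higher against the later. Myelin ran the other way round. Its 19 genes had 1 call against the earlier interval, in which 16 of them had already risen, and 15 higher calls against the later one, in which Mbp averaged 2982 ± 627 CPM at P30+ after 3520 ± 1679 CPM at P13 and 598 ± 515 CPM at P5. For Mbp the contrast with the later interval was 2.96 (adjusted p = 0.00734).

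Thyroid hormone genes separated by timing. Dio2 rose steeply in both earlier intervals, from 0.521 ± 0.169 CPM at E16.5 to 5.83 ± 1.96 at P5 and 65.8 ± 13.8 at P13, and then fell to 37.4 ± 6.60 CPM at P30+ (contrast with the later interval 4.47, adjusted p = 3.11e-07, with the earlier 0.30, adjusted p = 0.691). Hr was not called over the earlier interval (adjusted p = 0.5095), with 7.72 ± 1.35 CPM in the E16.5 and 9.17 ± 1.74 CPM in the P5 libraries. It then stood at 128 ± 43.0 CPM by P13 and 205 ± 17.5 CPM in P30+ cerebellum, and both contrasts were called (3.79, adjusted p = 2.41e-06, and 3.25, adjusted p = 3.57e-06). The white matter microglia genes were high at P5: Spp1, Gpnmb, Itgax, Lpl, Igf1 and Lgals3, 6 of 7, had risen from E16.5, and these were also called lower against that interval. Itgax averaged 2.49 ± 1.26 CPM at P5 (SD, n = 5), against 0.237 ± 0.138 CPM before, in the E16.5 libraries, and 0.147 ± 0.123 CPM after, at P13. The P30+ libraries held 0 to 1.01 CPM (contrast with the earlier interval -7.21, adjusted p = 0.000118). Nphs1 was also highest at P5, with 33.2 ± 7.02 CPM after 8.45 ± 4.38 CPM, and then 0.734 ± 0.499 and 0.603 ± 0.384 CPM at the later ages (contrast with the earlier interval -7.25, adjusted p = 1.53e-06). Grin2b, uncalled from P5 to P13, averaged 188 ± 24.5 CPM at P13 and 34.8 ± 5.42 CPM at P30+, and its contrast with the later interval was 2.30 (adjusted p = 0.00067).

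**Figure D4:**
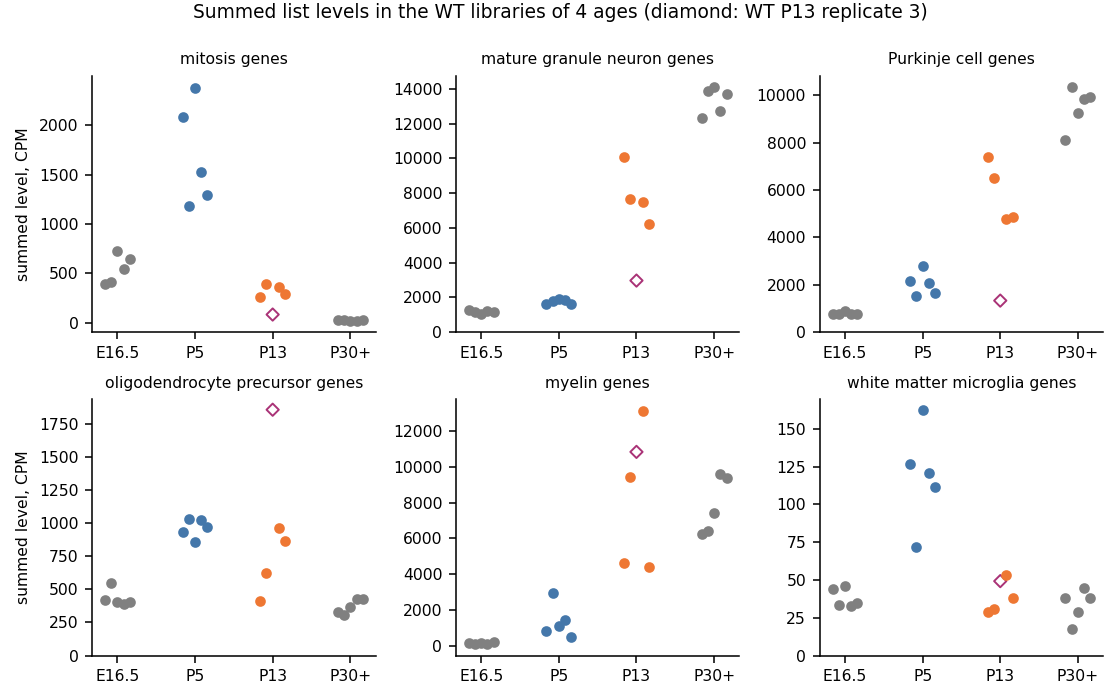
Summed levels (CPM, linear axes from 0) of 6 gene lists in the 20 WT libraries by age, one point per library and the library labelled WT P13 replicate 3 as a diamond. Mitosis and white matter microglia genes are highest at P5, with 1186 to 2380 and 71.5 to 162 CPM, and mature granule neuron genes rise through P13 to P30+.

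The P5 to P13 change was then compared between genotypes in a fit of 30 libraries. Some BCP and BPtch libraries also went against their tissue label, and regional markers moved with age and genotype. The summed level of 12 midbrain and brainstem markers was 60.1 to 330.2 CPM at P5 and 199 to 305 CPM at P13 in BCP, above every WT P13 library (11.3 to 96.8 CPM). At P13 most of that sum was Th, the dopamine synthesis enzyme, at 154 to 287 CPM in BCP and at most 6.36 CPM in WT. Th rose in BCP (3.22, adjusted p = 0.00836), and 8 of the other 11 markers fell there. None of the 12 differed from WT by a call, and their part in the differences below was not tested beyond the counts without single libraries. Zic1 was at 57.0 CPM in BCP P5 replicate 1, against 523 to 891 CPM in the other BCP P5 libraries, and at 82.8 and 233 CPM in BPtch P5 replicates 2 and 3, against 446 to 914 CPM in the others of that group. The BPtch libraries, 2 of whose P13 titles give a later day than their age label, lie apart from the WT and BCP libraries in the order of deposit, so genotype and place in that order cannot be told apart. The change from P5 to P13 was called for 7299 genes in WT, 5505 in BCP (28.2%) and 7689 in BPtch (39.3%) of 19547.

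In BCP cerebella the change differed from that in WT for 374 of 19547 genes (1.91%), 171 higher (0.875%) and 203 lower (1.04%), and for 425 (2.15%) without WT P13 replicate 3. The count depends on single libraries: it was 237 without BCP P5 replicate 1, 241 without BCP P5 replicate 3, 191 and 244 without BCP P13 replicates 2 and 4, 217 and 240 without WT P13 replicates 1 and 5, and 166 and 221 without WT P5 replicates 1 and 3. Without the 7 libraries that held over 20 CPM of Pax7 or Hoxb3 it was 122 of 19842 genes. In BPtch cerebella edgeR called none of 19547 (0%), with 1393 genes at an unadjusted p under 0.05, and DESeq2 called 4. Without WT P13 replicate 3 edgeR again called none, with 648 of 19784 genes at an unadjusted p under 0.05. By chance alone a share of about 0.05 of genes would lie there. The lack of calls does not show that BPtch and WT cerebella change alike.

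Dio2 showed the clearest difference. In BCP cerebella it was at 8.90, 34.5, 44.7, 50.4 and 35.9 CPM at P5 and 29.3, 12.1, 24.7, 14.9 and 32.6 CPM at P13, a change of -0.56 ± 0.32 (adjusted p = 0.187). At P5 it was thus above every WT library in 4 of 5 BCP libraries, and at P13 below every WT library. The BCP change minus the WT change was -4.28 ± 0.47 (adjusted p = 8.81e-06), -4.53 (adjusted p = 7.45e-08) without BCP P5 replicate 1 and -4.07 (adjusted p = 3e-05) without the 7 libraries. In BPtch cerebella it rose from 3.58 to 10.2 CPM to 56.7 to 66.0 CPM, by 3.42 (adjusted p = 1.07e-07), and the difference from WT was -0.30 ± 0.46 (adjusted p = 0.828). Hr rose in all 3 genotypes, by 4.00 in WT, 2.37 in BCP and 3.90 in BPtch, and the BCP rise was smaller than that in WT by 1.63 ± 0.41 (adjusted p = 0.0326). The call on that difference ended without the 7 libraries (adjusted p = 0.0811) and without any of 12 of the 20 single libraries (adjusted p of up to 0.0865).

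Microglia genes also differed. Of 8 white matter microglia genes tested in this fit, 2 were called higher and 1, Igf1, lower in BCP. Of all 19547 genes, 2792 were called higher and 2713 lower in BCP. For 4 of the 8 the BCP change was called above the WT change (Itgax, Gpnmb, Spp1 and Lgals3), beside 0.875% of all genes. The summed level of the 8 in BCP was 51.5, 139.7, 214, 188 and 229.9 CPM at P5 and 76.7, 160.2, 94.9, 141 and 61.3 CPM at P13. The sum thus did not follow the genes named next. The sum of the 12 general microglia genes ran from 216 to 267 CPM at P5 and from 222 to 423 CPM at P13 in BCP, where 3 were called higher and 1 lower. In WT P13 it ran from 116.6 to 187 CPM outside replicate 3. For 1 of the 12 the difference from WT was called, and for 4 without WT P13 replicate 3, all above 0. The part of microglia number in these differences was not tested. Itgax was at 0.168, 1.39, 0.423, 0.746 and 0.935 CPM at P5 and 0.999, 3.08, 1.77, 1.17 and 0.990 CPM at P13 in BCP, and the difference of changes was 5.05 ± 0.76 (adjusted p = 0.00104, and 0.00837 without the 7 libraries). Its BCP P13 values lay above all 5 WT P13 values, and 4 of its 5 BCP P5 values lay below all WT P5 values. Trem2 (difference 1.49, adjusted p = 0.00757) and Gpnmb (difference 4.36, adjusted p = 0.00671) rose in BCP where they fell in WT, by 0.70 (adjusted p = 0.0109) and 2.29 (adjusted p = 0.00471), and the differences remained called without the 7 libraries (adjusted p = 0.0212 and 0.0372). Outside the microglia, Nes, which fell in WT by 1.78 in this fit, was at 0.28 ± 0.31 in BCP (difference 2.05 ± 0.44, adjusted p = 0.0163). Nphs1 was already low in BCP at P5, at 0.754 to 3.36 CPM against 23.7 to 41.3 CPM in WT, and was at 0.789 to 5.45 CPM at P13 (difference 6.27 ± 1.08, adjusted p = 0.00363). In BPtch P5 replicates 2 and 3, the libraries low in Zic1, it was at 0.258 and 1.78 CPM, against 11.8 to 31.1 CPM in the other BPtch P5 libraries. Calb2, calretinin of granule neurons and unipolar brush cells, rose in WT by 2.19 with its 10 libraries and was at -0.42 (adjusted p = 0.391) in BCP (difference -2.61, adjusted p = 0.0084).

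None of the 19 mitosis, 18 replication and 14 granule progenitor genes differed by a call between BCP and WT, with median differences of 1.42, 1.22 and 0.34. In BCP itself none of the 19 mitosis genes was called, with a median of -0.92. Single BCP libraries stood apart for this list. Its sum was 134.8 CPM in BCP P5 replicate 1, against 647.5 to 1159 CPM in the other BCP P5 libraries. In BCP P13 replicate 1 it was 803 CPM, against 161 to 464.5 CPM in the other BCP P13 libraries. Of the 18 mature granule neuron genes 3 differed (Calb2, Kcnk9 and Cacng2, an AMPA receptor auxiliary subunit, -0.88 ± 0.21, adjusted p = 0.0268), all below 0, and 4 without WT P13 replicate 3, with medians of -0.56 and -0.75. For Mki67 the BCP change was -1.04 ± 0.60 (adjusted p = 0.197) and the difference from WT 1.52 ± 0.85 (adjusted p = 0.339). For Gabra6 the BCP change was 3.92 ± 0.89 (adjusted p = 0.00188) and the difference -2.87 ± 1.18 (adjusted p = 0.198). These wide errors do not show that the genotypes change alike.

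**Figure D5:**
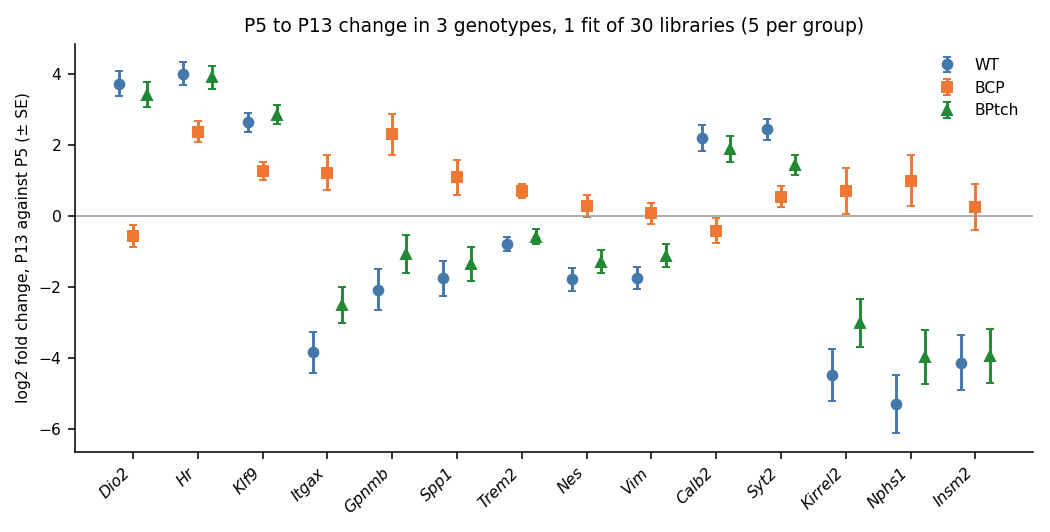
Log2 fold change from P5 to P13 (± SE) of 14 genes in WT, BCP and BPtch cerebella, from 1 fit of 30 libraries with 5 per group. Dio2 is at -0.56 in BCP and at 3.42 in BPtch, and Itgax at 1.22 and -2.51.

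Gene length went with the share of genes called higher, and only the shortest genes stood apart in their median change. Over 18147 tested genes with a length, with 9 libraries, the shortest 10% of genes (median 0.522 kb) had a median change of -0.37 and 6.06% called higher, beside 31.0% called lower. In the other 9 length groups of the same size the median change lay between 0.01 and 0.05. The share called higher reached 27.3% in the longest 10% (median 207.5 kb), where 18.9% were called lower, beside 19.2% of all genes. With 10 libraries the shares called higher in the shortest and longest groups were 5.42% and 23.1%. The part of gene length in the results above was not tested.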

How the data were processed

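The deposited table holds raw counts of reads per gene for 257 mouse libraries, all whole numbers and all matched to a sample. The authors aligned reads with HISAT2 to GRCm38 and made the counts with featureCounts, per the submitters' processing notes. Which versions were run, which annotation was counted and whether strand was used is not given in the sources used here, so overlapping and antisense genes may share counts. Gene symbols and coordinates came from GENCODE M21 (GRCm38), which held 31759 of the 32075 gene identifiers, and promoters came from RefSeq.

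Genes passed edgeR's filterByExpr (minimum count 10, minimum total 15). Library sizes were scaled by TMM, and P13 was tested against P5 with edgeR 4.0.16 (two-sided quasi-likelihood test, p-values adjusted by Benjamini-Hochberg over all genes tested, threshold 0.05). Another fit took the 4 WT ages and another WT, BCP and BPtch, and differences of changes were tested as contrasts. Error is SE for fold changes and SD for levels. Deeper libraries give steadier values, and a level under 1 CPM rests on few counts.

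The alternatives were DESeq2 1.42.0, DESeq2 size factors, upper quartile factors, library totals, no low-count filter, a test against a 2-fold change, other sets of libraries in the fit, the replicate number or the listing order of the libraries as a block, and leaving out each library. Leaving out libraries with over 20 CPM of Pax7 or Hoxb3, and DESeq2 or the replicate block without WT P13 replicate 3, were added after seeing the data. On simulated counts for P13 against P5 (18079 genes tested), 40% of 50 genes raised 2-fold, 54% of 50 lowered 2-fold and 100% of those changed 4-fold were called, beside 17 unchanged genes. The simulation gave every gene the same dispersion and held no outlying library, so these shares need not hold for the real libraries.

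The libraries compared and the gene lists were chosen with earlier results of these data known. Named genes are the lead members of each list, up to 4 members per list with the smallest adjusted p, the 10 largest rises and 10 largest falls above the level floor and, for each contrast of changes, its 5 largest in each direction and the list members called. The text gives some of these. Other genes, among them Gal3st1, Ccne1, Ccne2 and the markers of neighbouring regions, were chosen after their values were seen. R 4.3.3, Python 3.11.15, numpy 2.4.6, pandas 2.3.3 and matplotlib 3.10.9 were used.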

Additional observations from a re-analysis of the deposited data

Results flagged for a closer look

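Hr in WT P5 replicate 1 lay apart from its group, at 6.20 CPM where the other P5 libraries held 9.43 to 10.7 CPM. Its gap to the nearest library was 0.713 of the range of the group, over Dixon's critical value of 0.71 for 5 samples. This was 1 of 64 groups examined, for 32 genes, and chance alone would mark about 1 group in 20. Against a P13 range of 73.9 to 168 CPM the gap is small.

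The change from P5 to P13 differed between BCP and WT cerebella for 19 of the genes examined by name, by edgeR's test of the difference itself. The differences are BCP minus WT on the log2 scale. Below 0 were Dio2 (-4.28, adjusted p = 8.81e-06), the calretinin gene Calb2 (-2.61, adjusted p = 0.0084), the calcium sensor Syt2 (-1.89, adjusted p = 0.0163), the GABA-A subunit Gabra2 (-1.64, adjusted p = 0.0184), the thyroid hormone targets Hr (-1.63, adjusted p = 0.0326) and Klf9 (-1.37, adjusted p = 0.0446), the NMDA receptor subunits Grin2a (-1.46, adjusted p = 0.0482) and Grin2b (-1.11, adjusted p = 0.0476), the potassium channel Kcnk9 (-1.23, adjusted p = 0.00571) and the receptor kinase Kit (-0.95, adjusted p = 0.0163).

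Above 0 were the nephrin gene Nphs1 (6.27, adjusted p = 0.00363) and its neighbour Kirrel2 (5.19, adjusted p = 0.00642), the white matter microglia genes Itgax (5.05, adjusted p = 0.00104), Gpnmb (4.36, adjusted p = 0.00671) and Spp1 (2.85, adjusted p = 0.0302), the transcription factor Insm2 (4.37, adjusted p = 0.0227), the filament genes Nes (2.05, adjusted p = 0.0163) and Vim (1.82, adjusted p = 0.0272), and Trem2 (1.49, adjusted p = 0.00757).

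The 7 libraries with over 20 CPM of Pax7 or Hoxb3 were not spread evenly over these groups. They were replicates 2 and 5 of WT P5, 1 and 3 of BCP P5, 2 and 4 of BPtch P5 and replicate 3 of WT P13. No BCP P13 or BPtch P13 library was among them, so leaving them out bore mostly on P5. The rule kept BCP P5 replicate 4 and all BCP P13 libraries, whose summed midbrain and brainstem markers were 320 and 199 to 305 CPM. In the BCP P13 libraries most of that sum was Th. They held Zic1 at 681 to 1148 CPM and Pax7 at no more than 4.36 CPM. Without these 7 libraries 11 of the 19 kept their calls and 8 did not. The 8 were Gabra2 (adjusted p = 0.0737), Syt2 (0.0918), Hr (0.0811), Klf9 (0.0679), Spp1 (0.0868), Grin2a (0.203), Grin2b (0.223) and Insm2 (0.0997). Without WT P13 replicate 3 alone Grin2a (0.0704) and Grin2b (0.0634) lost theirs. Calls were also lost without other single libraries, 13 of 20 for Grin2a, 14 each for Grin2b and Klf9, 12 for Hr, 7 for Spp1 and 2 for Vim, and for none of the 20 for the other 13 genes.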

How the results depend on the processing

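Reversals of direction were counted only where the main fit or the alternative called the gene. So counted, none of the 190 genes examined by name, nor of the 19 with a BCP difference, reversed under the alternatives run. Uncalled genes could change sign, as Ptch1 did under library totals and Pax6 with 9 libraries. The balance of all calls reversed under some alternatives. The count of genes called between P5 and P13 ranged from 4675 to 7249 when single libraries were left out, lowest without WT P5 replicate 1 and highest without WT P13 replicate 3, with 2347 to 3744 higher, 2328 to 3505 lower and 1941 to 2692 at least 2-fold. DESeq2 called 6744, a listing-order block 6096 and edgeR without a low-count filter 5403. Tested against a 2-fold change, 579 were called, 271 higher and 308 lower. Library totals gave 1685 higher and 4629 lower, and upper quartile factors 37.4% higher.

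With a replicate block 4958 genes were called (2503 higher, 2455 lower), and 8021 with the block and without WT P13 replicate 3. Replicate numbers did not pair the libraries: deviations of same-numbered P5 and P13 libraries correlated at 0.28, 0.04, -0.51, 0.16 and 0.30, and only the first P5 library correlated best with its own number. Of 190 genes examined by name, 14 lost and 3 gained their call under the block. Among other list members, calls ended without 9 of 10 single libraries for Hopx, 8 for Pcp2, 6 each for Fat2 and Hhip, 5 for Igf2, 3 each for Col1a1, Gabra2 and Kdr and 1 each for Sox11 and Ctnnb1.

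Genes whose change differed between BCP and WT numbered 775 with DESeq2, 295 with the replicate block and 206 with those 2 genotypes alone (120 higher and 86 lower, against 171 and 203 in the report). They numbered 122 without the 7 libraries with over 20 CPM of Pax7 or Hoxb3, and 166 to 514 with single libraries left out. For BPtch the counts were 4 with DESeq2, 3 with 2 genotypes alone and 0 with any single library left out. The contrast with P13 to P30+ gave 1423 genes with the replicate block and 1419 to 2596 with single libraries left out, and that with E16.5 to P5 gave 3089 and 2173 to 4403. The causes were not tested. Genes with few counts at 1 age, such as Fgf15, have folds that depth limits.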
